A study of Homo sapiens with 42 samples.

Results

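PIM1, PIM2 and PIM3 encode the PIM kinases, a family of 3 genes among the 57353 gene names of the count table. They were chosen by name, after PIM1 had been selected on its input level in quizartinib-treated cells of hBMSC-CM against RPMI, so every comparison with quizartinib alone is given as a description with no test. All 3 were among the 12939 genes tested. PIM kinases are serine/threonine kinases that are active as soon as they are made, so that their activity in a cell follows mainly from how much message and protein is present. Cytokine receptors induce their genes through JAK and STAT proteins, and FLT3-ITD, the mutant receptor of many acute myeloid leukemias, does so through STAT5. The kinases promote survival and protein synthesis through substrates such as BAD and 4E-BP1, several of which AKT also phosphorylates.

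MOLM-13, a human acute myeloid leukemia cell line with FLT3-ITD and labelled wild type, was kept for 12 hours in RPMI medium or in hBMSC-CM, which is RPMI mixed with medium conditioned by the HS-5 human bone marrow stromal cell line. Cultures in RPMI received vehicle, 3 nM quizartinib (AC220, a FLT3 inhibitor), or quizartinib with 10 nM everolimus (combo; everolimus inhibits mTORC1). Cultures in hBMSC-CM received vehicle, quizartinib, everolimus or combo. Each of these 7 conditions had 3 replicates, and each replicate gave 2 libraries of polyadenylated RNA, the whole lysate (input) and the heavy polysomes, messages that carry many ribosomes, which makes 42 libraries. All cultures came from 1 cell line, no stromal cells were in the cultures, and everolimus alone in RPMI is not analysed here.

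Libraries held 19439370 to 37161265 counts in input and 21459383 to 38786394 counts in heavy polysomes, and a PIM gene had 150 to 23235 counts in a library. Of 10 myeloid markers, 8 reached a mean of 1 CPM (a gene's count relative to the library's total, for the markers without TMM scaling), and the summed level of the list was 1640 to 2960 CPM in input. Of 10 stromal markers, 2 (COL1A1 and TAGLN) reached it, and COL3A1, LUM and POSTN had no count in any library. The summed stromal level in input was 2.53 to 7.45 CPM in RPMI vehicle, 2.89 to 7.67 in hBMSC-CM vehicle, 12.2 to 39.7 in RPMI combo and 10.9 to 32.8 in hBMSC-CM combo. The stromal sum was thus higher with combo in both media, and its part in the combo results was not tested. Of 5 lymphoid markers, CD79A alone reached 1 CPM (summed level 1.29 to 4.02 in input), and of 4 erythroid markers none did (summed level at most 0.169). In a bulk culture, fewer cells of a type and less RNA per cell cannot be told apart, and each library is scaled to its own total. P-values measure the spread between these replicates.

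PIM1 (ENSG00000137193) lies at chr6:37170152-37175428 on the plus strand of GRCh38, PIM2 (ENSG00000102096) at chrX:48913182-48919024 on the minus strand, and PIM3 (ENSG00000198355) at chr22:49960768-49964072 on the plus strand. Each canonical transcript has 6 exons, and no exon of the 3 genes shares positions with an exon of another annotated gene on either strand. Since the PIM messages moved together in several comparisons, the 250 bases before the start of each gene are shown 5′ to 3′ on the gene's own strand (RefSeq, GRCh38.p14). Capitals mark the GC box GGGCGG and the octamer ATGCAAAT, each read on both strands. The windows are chr6:37169902-37170151 for PIM1, chrX:48919025-48919274 for PIM2 and chr22:49960522-49960771 for PIM3. They end at the RefSeq start. For PIM3 that start lies inside the gene position given above, and so does the end of its window.
PIM1: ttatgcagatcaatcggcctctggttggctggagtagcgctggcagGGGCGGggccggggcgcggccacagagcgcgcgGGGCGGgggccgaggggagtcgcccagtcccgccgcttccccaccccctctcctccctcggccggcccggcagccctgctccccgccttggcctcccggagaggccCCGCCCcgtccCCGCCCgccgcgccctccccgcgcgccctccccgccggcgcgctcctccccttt
PIM2: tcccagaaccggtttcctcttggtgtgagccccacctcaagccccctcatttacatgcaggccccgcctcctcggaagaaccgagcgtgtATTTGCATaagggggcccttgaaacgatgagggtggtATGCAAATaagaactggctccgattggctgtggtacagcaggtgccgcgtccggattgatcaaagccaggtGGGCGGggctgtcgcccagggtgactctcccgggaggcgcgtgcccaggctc
PIM3: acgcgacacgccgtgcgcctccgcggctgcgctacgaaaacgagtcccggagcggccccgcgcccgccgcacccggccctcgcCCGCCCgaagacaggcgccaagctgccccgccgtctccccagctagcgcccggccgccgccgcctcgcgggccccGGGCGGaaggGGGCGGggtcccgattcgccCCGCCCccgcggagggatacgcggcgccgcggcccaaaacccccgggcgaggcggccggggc

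The GC box occurred 4 times in the PIM1 window, once in PIM2 and 4 times in PIM3, and 42.6% of 35116 promoter windows of the same length hold it. The octamer, which is bound by POU-domain transcription factors, occurred 2 times in the PIM2 window and not in those of PIM1 and PIM3. It is held by 1.63% of all windows. The STAT motif TTCNNNGAA was in none of the 3 windows and in 6.57% of all (5.38% with a spacer of 4), and the E-box CACGTG was in none of the 3 and in 6.34% of all. CCAAT, read on both strands, was in the PIM2 window alone (32.0% of all windows), and the ETS core CCGGAAG in none of the 3 (8.52% of all). The windows had a GC content of 79.6% for PIM1, 61.2% for PIM2 and 82.0% for PIM3, against a median of 58.0% over all windows.

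The PIM transcripts were read for the GC content of the 5′ untranslated region and for AU-rich elements, copies of ATTTA in the 3′ untranslated region that bind proteins of message decay. In the canonical GENCODE transcripts the 5′ region had 424 bases and 75.5% GC in PIM1, 190 bases and 71.6% GC in PIM2, and 176 bases and 83.5% GC in PIM3. The medians over 10819 tested genes with a coding transcript were 132 bases and 66.9%, which puts the PIM1 region at the 90.4th percentile of length and that of PIM3 at the 96.4th percentile of GC. PIM1 and PIM2 stood at the 78.9th and 66.5th percentile of GC. ATTTA occurred 5 times in the 1337 bases of the PIM1 3′ region, 2 times in the 949 bases of PIM2 and 4 times in the 945 bases of PIM3, and the median over the tested genes was 2 copies. Of the tested genes, 27.9% had no copy. In copies per kb, PIM1, PIM2 and PIM3 stood at the 82.4th, 58.4th and 86.8th percentile. The 30 bases of each 3′ region with the most copies are shown with ATTTA in capitals, to let the tract of PIM1 be set beside the others. They lie at chr6:37174986-37175015 (plus strand), chrX:48913220-48913249 (minus strand) and chr22:49963617-49963646 (plus strand).
PIM1: gttatgtATTTATTTATTTATTTAtttggt
PIM2: tcctgcctggattATTTAaaaagccatgtg
PIM3: cggggctATTTAttgtttaATTTAtttgtt
PIM1 had 4 overlapping copies in 1 run, PIM3 had 2 separate copies and PIM2 had 1.

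PIM1 was the member with the widest range. Levels are given in CPM after TMM scaling, with the values of the 3 replicates in the order of their numbers. In RPMI, PIM1 input stood at 24.5, 24.5 and 23.9 CPM in vehicle cells, at 6.25, 5.39 and 6.35 with quizartinib, and at 9.26, 7.27 and 10.3 with combo. The hBMSC-CM cultures held 192, 127 and 151 CPM in vehicle cells, 257, 186 and 252 with quizartinib, 218, 232 and 218 with everolimus, and 278, 240 and 353 with combo. All 12 libraries of hBMSC-CM lay above all 9 of RPMI. The order of the means ran from hBMSC-CM combo (290.2 ± 57.7 CPM, SD, n = 3) through hBMSC-CM quizartinib (232 ± 39.7), everolimus (223 ± 8.25) and vehicle (157 ± 32.6) to RPMI vehicle (24.3 ± 0.319), RPMI combo (8.96 ± 1.56) and RPMI quizartinib (5.999 ± 0.531). Neighbours in this order overlapped between combo and quizartinib and between quizartinib and everolimus in hBMSC-CM, and nowhere else.

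PIM2 showed a stepwise order within hBMSC-CM. In RPMI its input was 13.9, 16.9 and 18.2 CPM in vehicle cells, 5.73, 6.10 and 7.75 with quizartinib, and 4.71, 6.04 and 7.50 with combo. In hBMSC-CM it was 27.6, 27.9 and 27.0 CPM in vehicle cells, 40.1, 40.3 and 37.6 with quizartinib, 35.6, 38.6 and 37.9 with everolimus, and 67.9, 67.1 and 93.4 with combo. The combo cultures of hBMSC-CM (76.1 ± 14.9 CPM, SD, n = 3) were the highest and did not overlap any other condition. Quizartinib and everolimus in hBMSC-CM overlapped each other (39.3 ± 1.54 and 37.3 ± 1.59), and so did quizartinib and combo in RPMI (6.52 ± 1.07 and 6.08 ± 1.39).

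PIM3 had 1 step between neighbouring conditions. In RPMI its input was 74.4, 79.7 and 113 CPM in vehicle cells, 30.03, 43.1 and 42.7 with quizartinib, and 33.3, 34.7 and 38.8 with combo. In hBMSC-CM it was 105, 106 and 143 CPM in vehicle cells, 86.4, 91.2 and 147 with quizartinib, 118, 118 and 129 with everolimus, and 88.0, 86.6 and 122.65 with combo. Neighbouring conditions overlapped everywhere in the order of means except at 1 step, between RPMI vehicle (89.0 ± 20.97 CPM, SD, n = 3) and RPMI quizartinib (38.6 ± 7.44). The 2 drug-treated groups in RPMI thus lay below the other 5 conditions. Not all of those 5 overlapped each other, as hBMSC-CM everolimus (118 to 129 CPM) lay above RPMI vehicle (74.4 to 113).

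**Figure D1:**
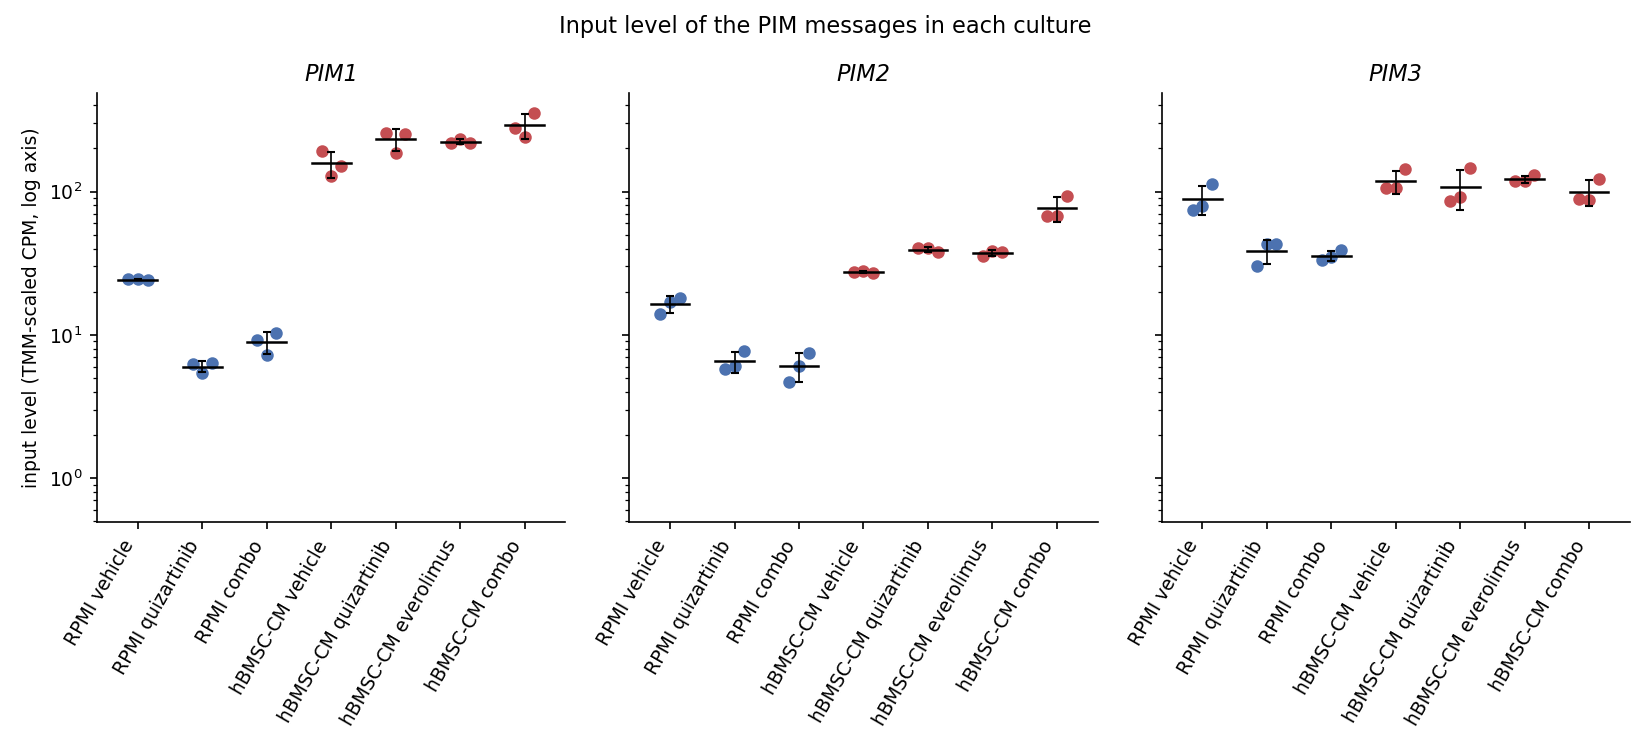
Input level of PIM1, PIM2 and PIM3 in CPM after TMM scaling (log axis) for the 7 conditions, with RPMI in blue and hBMSC-CM in red. Points are the 3 replicates, lines the mean and bars the SD. PIM1 spans 5.999 to 290.2 CPM in the means, and PIM3 35.6 to 122 CPM.

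The make-up of the family's message differed between the media. To compare genes, levels were divided by the length of the canonical transcript (2703 bases for PIM1, 2075 for PIM2 and 2102 for PIM3). The summed input level of the 3 genes was 59.2 ± 10.7 CPM per kb in RPMI vehicle, 23.7 ± 3.82 in RPMI quizartinib and 23.2 ± 2.37 in RPMI combo (SD, n = 3 each). In hBMSC-CM it was 127 ± 14.4 CPM per kb in vehicle, 156 ± 24.9 with quizartinib, 158 ± 3.61 with everolimus and 191 ± 37.8 with combo. PIM3 made up 71.1% ± 3.68 of this sum in RPMI vehicle and 73.2% ± 1.74 in RPMI combo, and PIM1 made up 15.5% ± 2.77 and 14.3% ± 1.93. In hBMSC-CM vehicle, PIM1 (45.4% ± 6.48) and PIM3 (44.1% ± 6.26) had shares that overlapped between replicates. In hBMSC-CM combo, PIM1 made up 56.2% ± 1.66, PIM3 24.6% ± 0.938 and PIM2 19.2% ± 0.735. The most abundant PIM message per length was thus PIM3 in all 9 cultures of RPMI, and PIM1 in all 9 drug-treated cultures of hBMSC-CM.

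**Figure D2:**
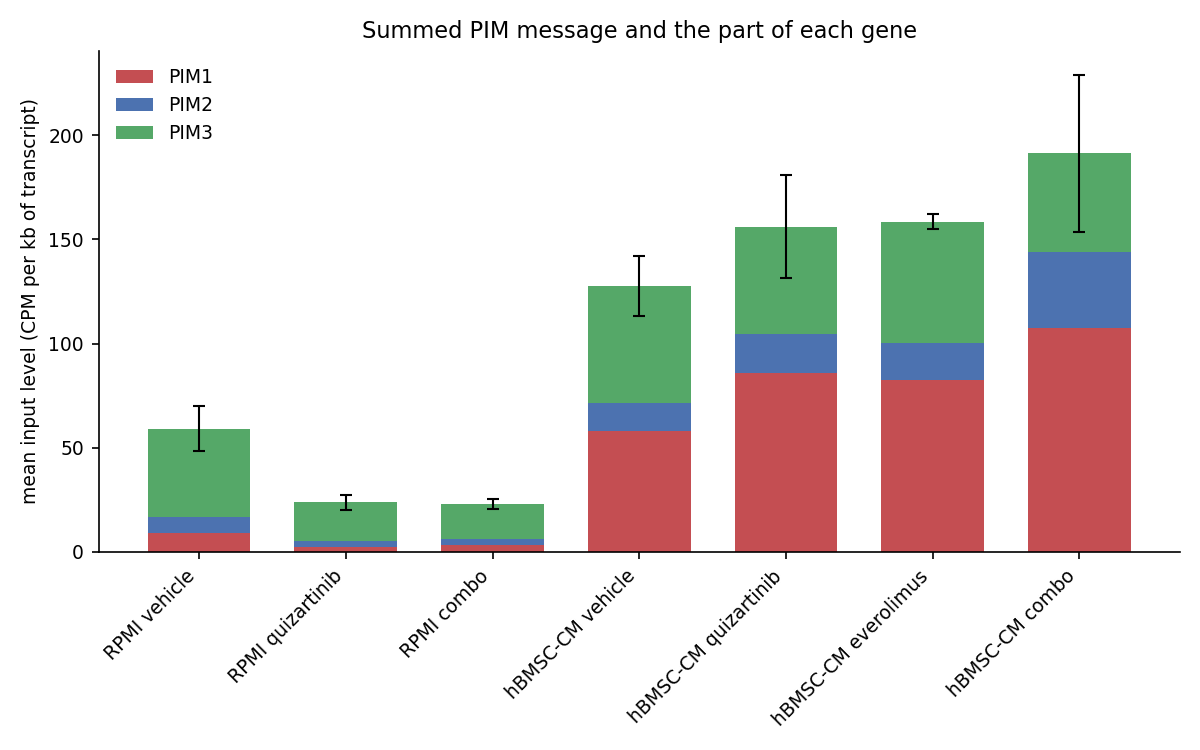
Mean input level per kb of transcript of the 3 PIM genes, stacked, in the 7 conditions, with error bars for the SD of the sum over 3 replicates. The sum ranges from 23.2 CPM per kb in RPMI combo to 191 in hBMSC-CM combo, and PIM3 is the largest part in RPMI.

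The effect of hBMSC-CM without drug was seen in PIM1. In vehicle cells PIM1 was 6.45-fold higher in hBMSC-CM than in RPMI, a log2 change of 2.69 (SE 0.24, edgeR adjusted p 9.95e-10), and ranked 5 among all genes by p. PIM2 differed by 0.75 (SE 0.25, edgeR adjusted p 0.163) and PIM3 by 0.40 (SE 0.22, edgeR adjusted p 0.772). The PIM2 replicates did not overlap between the media (13.9 to 18.2 against 27.0 to 27.9 CPM), and those of PIM3 did. The share of all genes without overlap was not counted, here or in the comparisons below. Thus 1 of 3 members was called, against 1.51% of all genes. Same-numbered replicates deviated together here, and with the replicate number as a block PIM2 was called too, at 0.76 (edgeR adjusted p 0.0268), beside 2.88% of all genes.

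With FLT3 and mTOR inhibited in RPMI, all 3 members fell. Combo against vehicle gave a log2 change of -1.44 for PIM1 (SE 0.23, edgeR adjusted p 6.86e-06), -1.42 for PIM2 (SE 0.25, edgeR adjusted p 2.7e-05) and -1.32 for PIM3 (SE 0.22, edgeR adjusted p 1.37e-05). These are falls to 0.368, 0.373 and 0.400 of the vehicle level. The replicates of the 2 groups did not overlap for any member, with no count of this over all genes. This comparison called 37.4% of all genes, 19.7% lower.

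In hBMSC-CM the same treatment raised PIM1 and PIM2. Combo against vehicle gave 0.89 for PIM1 (SE 0.23, edgeR adjusted p 0.00336) and 1.47 for PIM2 (SE 0.25, edgeR adjusted p 2.83e-05), rises of 1.85-fold and 2.77-fold. PIM3 gave -0.25 (SE 0.22, edgeR adjusted p 0.435), and its replicates overlapped. Of all genes, 26.5% were called, 11.4% higher. The difference between the media in the combo effect was itself tested, and it was 2.33 for PIM1 (SE 0.33, edgeR adjusted p 4.36e-05), 2.89 for PIM2 (SE 0.35, edgeR adjusted p 7.55e-06) and 1.07 for PIM3 (SE 0.31, edgeR adjusted p 0.145). Of all genes 0.556% were called in this difference, and by p PIM2 ranked 2 and PIM1 ranked 7. The difference includes the comparison of the media under combo. For PIM1 it is thus not fully independent of the choice of that gene. With the replicate block PIM3 was called as well, at 1.06 (edgeR adjusted p 0.0346), beside 1.38% of all genes.

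The media were also compared under combo, in cultures that the choice of PIM1 did not use. PIM1 was 32.4-fold higher in hBMSC-CM than in RPMI (a log2 difference of 5.02, SE 0.27, edgeR adjusted p 4.5e-16), PIM2 12.5-fold (3.64, SE 0.27, edgeR adjusted p 5.11e-12) and PIM3 2.78-fold (1.48, SE 0.23, edgeR adjusted p 1.75e-05). By p they ranked 2, 5 and 100 among the genes tested. All 3 members were called, against 5.36% of all genes. None overlapped between the media, with no count of this over all genes. The comparison shares its libraries with those of combo against vehicle, so the values are not separate evidence. Combo also holds the same 3 nM quizartinib as the cultures from which PIM1 was chosen. Same-numbered input libraries of combo and quizartinib deviated together (correlations of 0.444 to 0.658 in hBMSC-CM and 0.347 to 0.537 in RPMI). The PIM1 value is thus not fully independent of that choice.

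Everolimus alone was compared with vehicle in hBMSC-CM. PIM1 differed by 0.51 (SE 0.23, edgeR adjusted p 0.492), PIM2 by 0.44 (SE 0.24, edgeR adjusted p 0.645) and PIM3 by 0.05 (SE 0.22, edgeR adjusted p 0.989), and 0 of 3 members were called beside 0.41% of all genes. The replicates of PIM1 and PIM2 lay above those of vehicle without overlap, and those of PIM3 overlapped. How many of all genes did not overlap was not counted, so this is a description only. At an unadjusted p under 0.05, 1123 genes passed in edgeR and PIM1 was among them (p 0.0316). Limma called 105 genes, DESeq2 164, and neither called a member. Adding quizartinib to everolimus (combo against everolimus) raised PIM2 by 1.03 (SE 0.24, edgeR adjusted p 0.00435), a 2.04-fold rise. PIM1 differed by 0.38 without overlap (SE 0.23, edgeR adjusted p 0.315) and PIM3 by -0.30 (SE 0.22, edgeR adjusted p 0.446), and 11.1% of all genes were called. Everolimus libraries did not deviate with same-numbered libraries of other conditions (0 of 18 input pairs correlated over 0.1, against 45 of 45 without everolimus). The labels do not say whether these cultures were handled apart from the others. The part of such a difference in both comparisons was not tested.

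**Figure D3:**
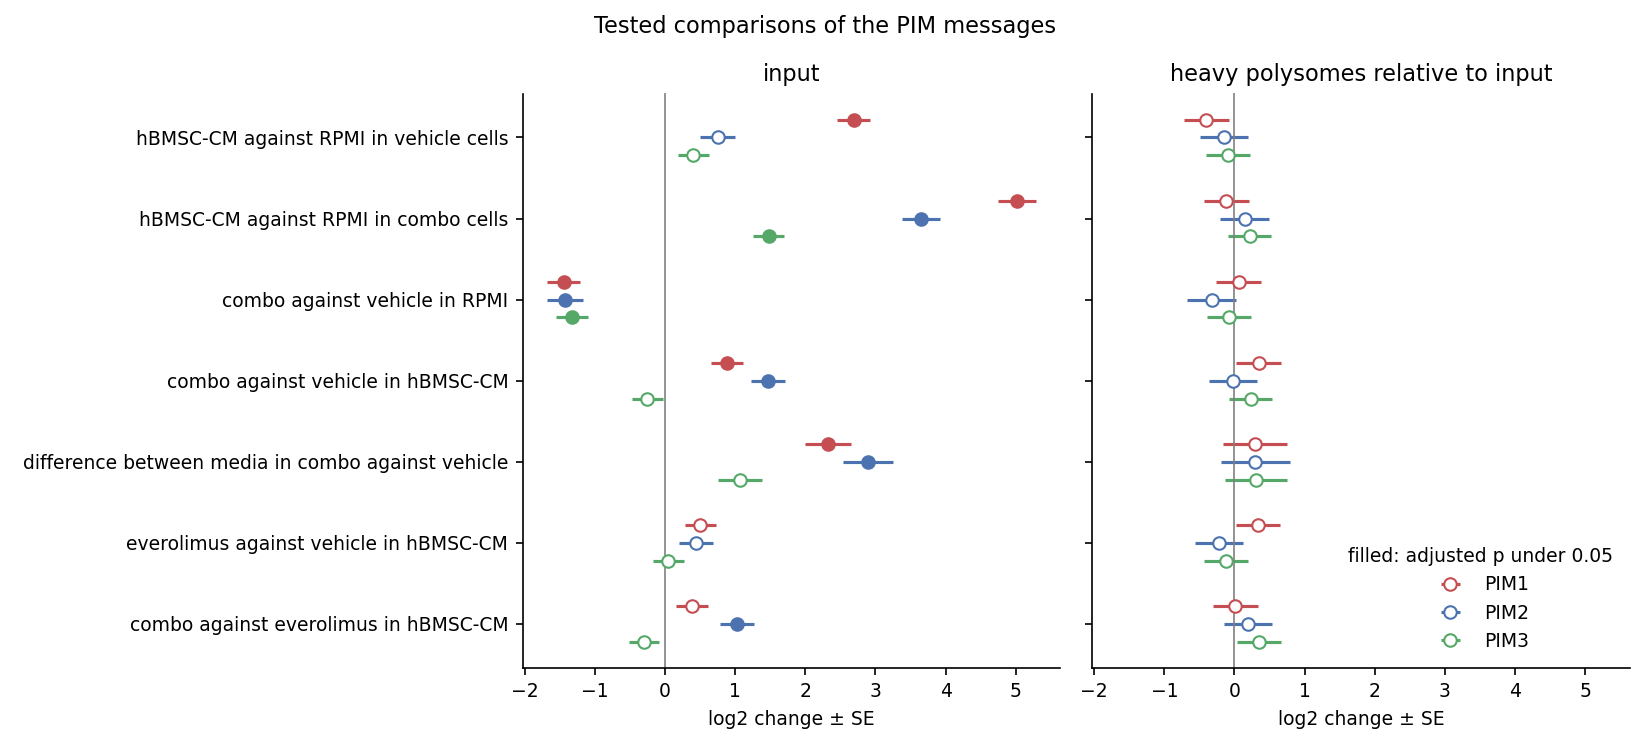
Log2 change with its SE for PIM1, PIM2 and PIM3 in the 7 tested comparisons, in input (left) and in heavy polysomes relative to input (right). Filled points have an edgeR adjusted p under 0.05, which 12 of 21 input values and 0 of 21 polysome values reached.

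The contrasts with quizartinib alone are described with no test, since PIM1 was chosen from them. hBMSC-CM against RPMI under quizartinib gave a log2 difference of 5.27 for PIM1 (SE 0.27), 2.59 for PIM2 (SE 0.26) and 1.49 for PIM3 (SE 0.23). Quizartinib against vehicle in RPMI gave -2.02 (SE 0.24), -1.32 (SE 0.25) and -1.21 (SE 0.22) in the same order, and in hBMSC-CM 0.56 (SE 0.23), 0.52 (SE 0.24) and -0.12 (SE 0.22). Combo against quizartinib gave 0.58 for PIM1 in RPMI (SE 0.23), where the replicates did not overlap, and 0.95 for PIM2 in hBMSC-CM (SE 0.24), likewise without overlap. The other 4 values of combo against quizartinib ran from -0.13 to 0.32, with overlapping replicates. In heavy polysomes relative to input, hBMSC-CM against RPMI under quizartinib gave -0.54 for PIM1 (SE 0.32), 0.28 for PIM2 (SE 0.35) and 0.03 for PIM3 (SE 0.31). The other 12 such values with quizartinib alone ran from -0.34 to 0.27, and the replicates of polysome minus input overlapped in all 15.

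All PIM messages were held in heavy polysomes above their input share. In RPMI vehicle, polysome against input gave a log2 difference of 1.24 for PIM1 (SE 0.23, edgeR adjusted p 2.39e-05), 1.37 for PIM2 (SE 0.25, edgeR adjusted p 1.65e-05) and 1.49 for PIM3 (SE 0.22, edgeR adjusted p 1.14e-06). All 3 were called, beside 65.4% of all genes, of which 4070 were higher and 4387 lower. With library totals in place of TMM factors these values were 0.67, 0.81 and 0.93, still called, while the median of all genes moved from -0.06 to -0.61. PIM1 rose in CPM from 24.5, 24.5 and 23.9 in input to 69.3, 52.9 and 49.9 in heavy polysomes, and PIM3 from 74.4, 79.7 and 113 to 294, 215 and 240. Over the 7 conditions and 3 members, polysome lay above input in 63 of 63 pairs of libraries with the same number, by 0.41 to 2.08 on the log2 scale.

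The mean of polysome minus input ran for PIM1 from 0.84 ± 0.06 in hBMSC-CM vehicle to 1.41 ± 0.63 in RPMI quizartinib, for PIM2 from 1.00 in both RPMI quizartinib (± 0.53) and hBMSC-CM everolimus (± 0.06) to 1.36 ± 0.31 in RPMI vehicle, and for PIM3 from 1.28 ± 0.11 in hBMSC-CM everolimus to 1.63 ± 0.14 in hBMSC-CM combo (log2, SD, n = 3). PIM1 in hBMSC-CM vehicle stood at 0.79, 0.90 and 0.84 and lay below the 3 values of RPMI vehicle (1.501, 1.11 and 1.06). It also did not overlap RPMI combo (1.07 to 1.62), hBMSC-CM combo (1.04 to 1.37) or everolimus (1.17 to 1.18), and PIM3 with everolimus (1.17 to 1.38) did not overlap hBMSC-CM combo (1.55 to 1.79). PIM2 followed the replicate number, being highest in replicate 2 in 7 of 7 conditions, both in heavy polysomes and in polysome minus input. In hBMSC-CM combo, for example, PIM2 in heavy polysomes was 117, 232 and 175 CPM, and in RPMI vehicle 38.9, 51.2 and 36.8 CPM. PIM3 minus its input was highest in replicate 1 in 6 of 7 conditions.

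**Figure D4:**
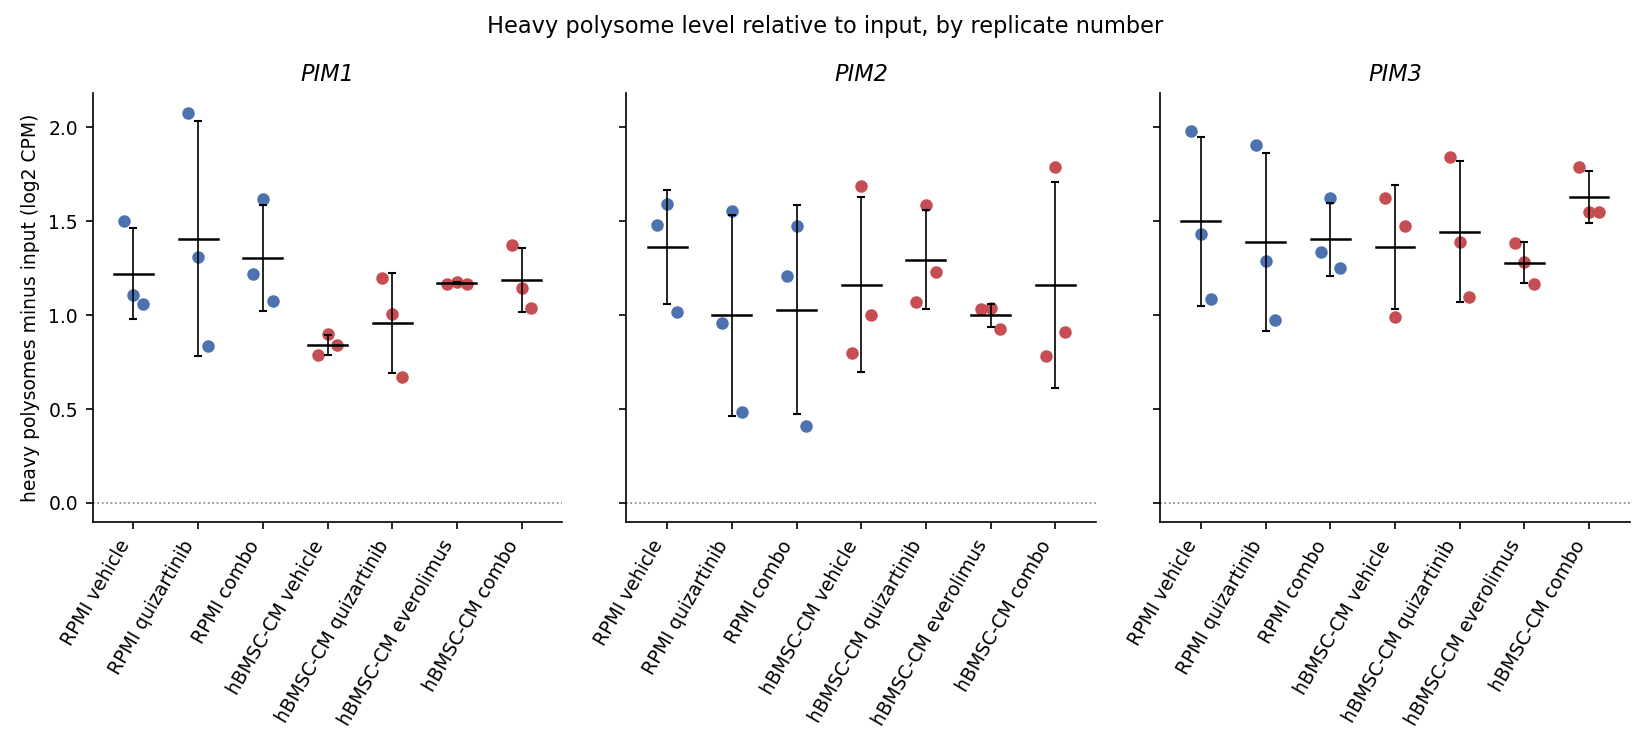
Heavy polysome minus input level (log2 CPM) of the 3 genes in the 7 conditions. Points are replicates 1, 2 and 3 from left to right, lines the mean and bars the SD. All values are above 0, and for PIM2 the middle point is the highest in each condition.

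No change in heavy polysomes beyond that of input was called for a PIM gene. The change in heavy polysomes relative to input was called for 0 of 21 tests of the members, with log2 values from -0.40 to 0.35 (SE 0.31 to 0.49) and edgeR adjusted p of 0.71 or more, and 0 of the 21 tests had an unadjusted p under 0.05. For hBMSC-CM against RPMI the values were -0.40 (PIM1), -0.15 (PIM2) and -0.09 (PIM3) in vehicle cells, and -0.11, 0.15 and 0.22 in combo cells. These 2 comparisons called 0% of all genes in edgeR, with 211 and 198 genes at an unadjusted p under 0.05, and limma called 0 genes in both and DESeq2 1 and 2. Combo against vehicle gave 0.06, -0.32 and -0.08 in RPMI, where 4.99% of all genes were called (10.4% with the replicate block), and 0.35, -0.02 and 0.23 in hBMSC-CM, where 0.0232% were (0.448% with the block). In the combo comparisons with vehicle the median of all genes was 0.15 in RPMI and 0.17 in hBMSC-CM. Everolimus against vehicle (0.34, -0.22 and -0.12), combo against everolimus (0.01, 0.20 and 0.35) and the difference between the media (0.29, 0.30 and 0.31) called 0% of all genes in edgeR, with 573, 875 and 346 genes at an unadjusted p under 0.05, none in limma and 7, 7 and 3 in DESeq2. With library totals in place of TMM factors, combo against vehicle in RPMI gave 0.34, -0.07 and 0.19 for the members and 0.43 for the median of all genes. With these SE and 3 replicates, moderate shifts in heavy polysomes were not detectable.

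**Figure D5:**
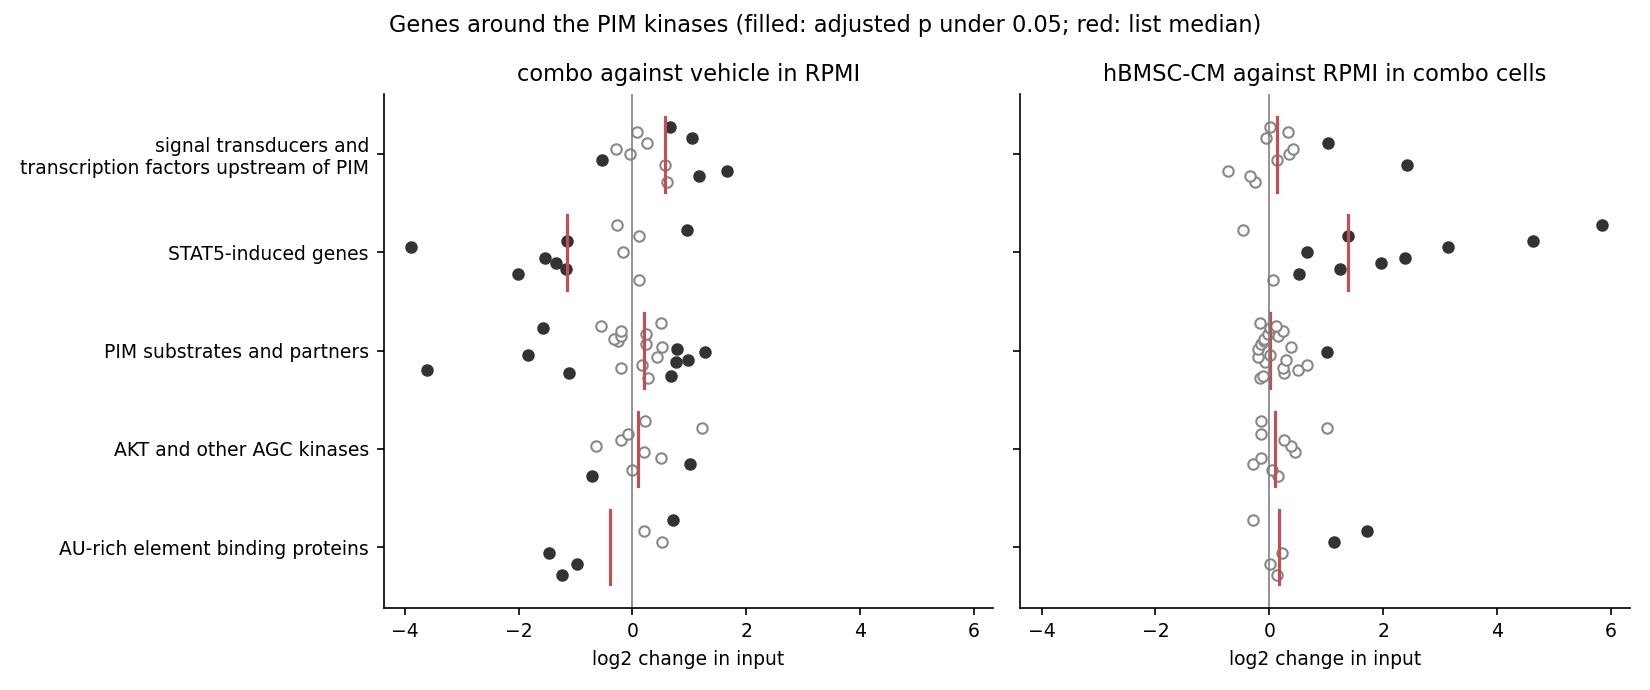
Log2 change in input of the genes of 5 lists around the PIM kinases, for combo against vehicle in RPMI (left) and hBMSC-CM against RPMI in combo cells (right). Each point is a gene, filled points have an edgeR adjusted p under 0.05, and the red bar is the list's median, which is -1.14 and 1.39 for the STAT5-induced genes.

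Genes that STAT5 is known to induce share this inducer with the PIM genes. In RPMI, combo against vehicle lowered 6 of the 11 tested (CISH, OSM, CCND2, CCND3, MYC and ID1), raised SOCS2 and left 4 uncalled, with a median of -1.14 beside 0.07 over all genes, of which 19.7% were called lower and 17.7% higher. MYC, a transcription factor of growth, had a log2 change of -3.88 (SE 0.33, edgeR adjusted p 2.59e-11), from 490.3 ± 75.1 to 33.2 ± 8.65 CPM. CCND2, which encodes cyclin D2, fell by 2.00 (SE 0.17, edgeR adjusted p 1.93e-11), and SOCS2, a feedback inhibitor of cytokine receptors, rose by 0.95 (SE 0.20, edgeR adjusted p 0.000315). In hBMSC-CM, where PIM1 and PIM2 rose, combo raised SOCS2 and SOCS3, lowered CCND2 and ID1 and left 7 uncalled. The median there was 0.32 beside 0.02 over all genes, of which 11.4% were called higher and 15.1% lower. In combo cells, hBMSC-CM against RPMI gave 9 of 11 higher and none lower, with a median of 1.39 beside -0.03 over all genes, of which 4.11% were called higher and 1.24% lower. The largest rises were in SOCS3, a feedback inhibitor that STAT3 also induces (5.85, SE 0.29, edgeR adjusted p 5.27e-17), and in OSM, the cytokine oncostatin M (4.63, SE 0.46, edgeR adjusted p 3.83e-09). SOCS3 was at 2.46 ± 0.871 CPM in RPMI combo and 142 ± 13.4 in hBMSC-CM combo. SOCS3, OSM and ID1 were also the 3 of 11 called higher in vehicle cells of hBMSC-CM (1.3% of all genes), and CISH, SOCS3 and MYC the 3 called in the difference between the media (0.556% of all genes).

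Of the 11 signal transducers and transcription factors upstream of PIM, 2 were higher in hBMSC-CM combo than in RPMI combo and none lower (median 0.13), beside 4.11% of all genes higher. JAK3, the kinase of the common gamma chain receptors, was higher by 2.41 (SE 0.26, edgeR adjusted p 2.67e-08) and STAT3 by 1.03 (SE 0.29, edgeR adjusted p 0.027). In RPMI, combo raised JAK1, JAK2, TYK2 and STAT5A, lowered NFKB1 and left 6 uncalled (median 0.58), in a comparison that called 37.4% of all genes. JAK2 rose by 1.66 (SE 0.29, edgeR adjusted p 2.42e-05), JAK1 rose by 1.17 (SE 0.25, edgeR adjusted p 0.000371), and NFKB1 fell by 0.53 (SE 0.21, edgeR adjusted p 0.0458). Of the 5 called in RPMI, NFKB1 alone changed in the direction of the PIM messages. In hBMSC-CM, combo raised 5 of the 11 (JAK1, JAK2, JAK3, STAT3 and STAT5A) and lowered none (median 0.50). That was the direction of PIM1 and PIM2 there, beside 11.4% of all genes called higher and 15.1% lower.

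Of 22 tested PIM substrates and partners, 1 was called between hBMSC-CM and RPMI in combo cells, beside 5.36% of all genes. It was FOXO1, a transcription factor that PIM and AKT inhibit (1.01, SE 0.30, edgeR adjusted p 0.0392), and the median was 0.01. In RPMI, combo raised 5 of 22 and lowered 4, with a median of 0.20, where 17.7% of all genes were called higher and 19.7% lower. Both counts are near the share over all genes. FOXO1 (1.28, SE 0.31, edgeR adjusted p 0.00117) and the chemokine receptor CXCR4 (0.98, SE 0.17, edgeR adjusted p 1.26e-05) rose most. The phosphatase gene CDC25A fell by 3.60 (SE 0.24, edgeR adjusted p 9.8e-14) and EIF4EBP1, which encodes 4E-BP1, fell by 1.84 (SE 0.22, edgeR adjusted p 2.4e-08). In hBMSC-CM combo raised 5 (CDKN1B, FOXO1, FOXO3, MAP3K5 and CXCR4) and lowered 4 (CDC25A, SKP2, EIF4EBP1 and CBX3). That comparison called 11.4% of all genes higher and 15.1% lower.

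Of 10 tested AKT and other AGC kinases, 0 were called between the media in vehicle or in combo cells, beside 1.51% and 5.36% of all genes, with medians of -0.0017 and 0.10. Combo in RPMI lowered AKT1, which fell by 0.70 (SE 0.24, edgeR adjusted p 0.0194), beside 19.7% of all genes called lower. Combo in hBMSC-CM raised SGK1 alone of these, where 26.5% of all genes were called, and 2 of the 10 genes were called with the replicate block. Of 6 proteins that bind AU-rich elements, hBMSC-CM against RPMI in combo cells gave higher levels (4.11% of all genes) of ZFP36L1 (1.72, SE 0.32, edgeR adjusted p 0.000328) and ZFP36 (1.14, SE 0.28, edgeR adjusted p 0.00738), which promote decay. Combo in RPMI lowered KHSRP (-1.46, SE 0.23, edgeR adjusted p 3.07e-06), ELAVL1 (-1.24, SE 0.15, edgeR adjusted p 3.46e-08) and HNRNPD, and raised ZFP36L2 (0.71, SE 0.24, edgeR adjusted p 0.0199). Of all genes, 19.7% were called lower there and 17.7% higher. In hBMSC-CM, combo lowered KHSRP, ELAVL1 and HNRNPD and raised ZFP36, ZFP36L1 and ZFP36L2, beside 15.1% of all genes called lower and 11.4% higher.

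Over the 21 input libraries, the genes most like each member were named by Pearson's r of log2 CPM among the 8637 genes that averaged 10 CPM or more. The libraries share 2 media and 4 treatments, PIM1 did not overlap between the media, and no p is given. They include the input libraries of quizartinib alone, on which PIM1 was chosen, so the ranking is a description and not separate evidence. Most like PIM1 were FLOT1 (r 0.981, Spearman's rho 0.908), OSM (0.973 and 0.860), BASP1 (0.972 and 0.777), NECTIN2 (0.971 and 0.927) and LIMK2 (0.971 and 0.892). Most like PIM2 were NECTIN2 (0.964 and 0.940), SLC2A3 (0.961 and 0.892), PIM1 (0.957 and 0.925), TLE3 (0.956 and 0.952) and ARRB2 (0.947 and 0.871). Most like PIM3 were CCND3, which encodes cyclin D3 (0.975 and 0.914), LTB4R (0.972 and 0.895), PLAUR (0.971 and 0.935), HRH2 (0.962 and 0.865) and WRNIP1 (0.960 and 0.944). PIM1 was thus among the 5 genes most like PIM2, while PIM2 ranked 11 in likeness to PIM1. PIM3 stood further from both, with r of 0.870 to PIM1 and 0.850 to PIM2. Among the 8637 genes it still ranked 76 for PIM1 and 83 for PIM2.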

How the data were processed

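Libraries of polyadenylated RNA (Universal Plus mRNA-seq with NuQuant) were sequenced in pairs on a NovaSeq6000. The authors trimmed reads with BBDuk, dropped reads under 50 bases, and counted reads per gene with STAR 2.6.0a on the Ensembl hg38.p12 genome. The deposited counts were used as given. Rows of 1 gene name were summed, and genes with a mean of at least 1 count and 1 CPM were kept (12939 genes). EdgeR 4.0.16 (R 4.3.3; TMM factors, robust quasi-likelihood test, 14 group means over 42 libraries) gave log2 changes, and p-values were adjusted by Benjamini-Hochberg over all genes tested, with 0.05 as threshold. Limma 3.58.1 and DESeq2 1.42.0 served as alternatives. Log2 CPM used a prior count of 2. The test was run on simulated data drawn without shared deviations of same-numbered replicates, so this run cannot speak to their effect on the calls.

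The labels number the replicates alike in every group. Deviations from the group means of same-numbered libraries correlated at 0.284 or more in 45 of 45 input pairs and at 0.153 or more in 45 of 45 polysome pairs of the 6 conditions other than everolimus, so a replicate block is given where it changes a call or moves a count. Members, lists and tests were chosen with earlier results of these data known. The genes named beside the members were, per list, the 2 largest rises and falls among those called in 2 input comparisons (combo against vehicle in RPMI, hBMSC-CM against RPMI in combo cells), and 5 genes by likeness. Other genes were named after their values were seen. One gene that this rule names is not reported here.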

Additional observations from a re-analysis of the deposited data

Results flagged for a closer look

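The effect of combo on input differed between the media for 2 members. PIM1 fell in RPMI and rose in hBMSC-CM, and the difference of these log2 changes was 2.33 (SE 0.33, edgeR adjusted p 4.36e-05). PIM2 did so as well, with a difference of 2.89 (SE 0.35, edgeR adjusted p 7.55e-06). All 3 replicates of PIM1 and of PIM2 fell below vehicle in RPMI and rose above it in hBMSC-CM. The difference includes the media under combo, so for PIM1 it is not fully independent of how that gene was chosen.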

How the results depend on the processing

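Of the alternative values of the members, 327 of 333 in input, 322 of 354 in heavy polysomes relative to input and 39 of 39 for polysome minus input kept their direction and call, and no call was lost. The replicate block, in all libraries or within each fraction, called PIM2 between the media in vehicle cells (0.76 and 0.76) and PIM3 in the difference between the media (1.06 and 1.05), and changed no other call of the members. Libraries of everolimus shared only a number with the others (1 of 18 polysome pairs and 0 of 18 input pairs correlated over 0.1).

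The values that changed sign belong to uncalled results. For PIM1 in heavy polysomes relative to input, combo against vehicle in RPMI gave -0.11 (DESeq2), -0.11 (RLE factors), -0.012 (no filter) and -0.18 (the groups compared alone), and combo against everolimus gave -0.068 (DESeq2), -0.068 (RLE factors), -0.066 (library size), -0.092 (no filter), -0.0085 (stricter filter) and -0.063 (the groups compared alone). With library size, PIM3 gave 0.19 for combo in RPMI and 0.046 for everolimus, and PIM2 gave 0.081 for combo in hBMSC-CM (0.0046 with the replicate block within each fraction). The cause was not tested.

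Leaving out 1 replicate changed no call of a member in 297 values. In input, PIM3 under everolimus ranged from -0.027 to 0.228. In heavy polysomes relative to input, the ranges for PIM1 were -0.089 to 0.21 (combo in RPMI), -0.21 to 0.032 (media in combo cells) and -0.13 to 0.031 (combo against everolimus). For PIM2 they were -0.47 to 0.021 (media in vehicle cells), -0.36 to 0.30 (combo in hBMSC-CM), -0.39 to 0.099 (everolimus), -0.19 to 0.42 (media in combo cells), -0.14 to 0.32 (combo against everolimus) and -0.043 to 0.62 (difference between the media). For PIM3 they were -0.33 to 0.16 (media in vehicle cells) and -0.31 to 0.17 (combo in RPMI).

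Counts of called genes depended on the settings. In input, the 195 genes between the media in vehicle cells ranged from 105 to 585, the 693 in combo cells from 510 to 1372, the 72 of the difference between the media from 42 (without hBMSC-CM vehicle replicate 2) to 378, the 3430 for combo in hBMSC-CM from 2417 to 5494, the 53 for everolimus from 9 (without everolimus replicate 3) to 675, and the 1437 for combo against everolimus from 803 (without everolimus replicate 3) to 3719. In heavy polysomes relative to input, the 646 for combo in RPMI ranged from 172 (without RPMI combo replicate 1) to 2323, the 3 for combo in hBMSC-CM from 0 to 87, and the counts of 0 reached 440 for combo against everolimus, 19 for everolimus, 6 between the media in combo cells, 1 in vehicle cells and 3 for the difference. Of 210 list counts, 24 moved. The 3 replicates per condition limit the size of change that can be called.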
